A study of Mus musculus with 6 samples.

Results

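REST (RE1-silencing transcription factor) is a zinc-finger protein that keeps neuronal genes off in stem cells and in non-neuronal tissue by binding an element called RE1. Its C-terminal domain recruits the CoREST corepressors (Rcor1, Rcor2 and Rcor3), its N-terminal domain recruits the SIN3 scaffolds (Sin3a and Sin3b), and both arms carry the histone deacetylases Hdac1 and Hdac2, while the histone H3 lysine 9 methyltransferase G9a (Ehmt2) is recruited as well. Huntingtin, the protein encoded by Htt, is known to retain REST in the cytoplasm of neurons, and Bdnf, which encodes a neurotrophin that striatal neurons depend on, is a classic REST target. The genes described here are these 9 members of the repressor and Bdnf. They were taken by symbol, with no threshold on a measured value, and all 10 were found among the 23412 genes of the data.

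RNA-seq was carried out on undifferentiated mouse embryonic stem cells (mESCs) of 2 lines on the 129Sv background. R1 is the wild type parental line, and HN (genotype Htt-/-) lacks the promoter and exon 1 of both Htt alleles. Both lines were kept in the same medium, with serum, LIF and the inhibitors SU5402 (FGF and VEGF receptors), PD184352 (MEK) and CHIR99021 (GSK3), on gelatin and without feeders, and total RNA was taken on 3 dates. Each line has 3 libraries, numbered so that libraries with the same number share a date, and the sources used here do not say whether HN was derived as a single clone. The values are normalized counts, that is, reads per gene divided by a size factor for each library. Between 1640391 and 3866717 reads per library fell on genes, and 3 reads corresponded to a normalized count of 2.13 to 4.04.

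The targeted gene was read first. Htt had normalized counts of 229.9, 257.4 and 199.5 in R1 and of 18.3, 58.1 and 54.2 in HN, for replicates 1, 2 and 3. The lines did not overlap, and the log2 difference, HN minus R1 as throughout, was -2.52 (SE 0.37, limma adjusted p = 0.0141). The summed level of 10 pluripotent cell markers was between 15328 and 23563 in each library. That of 10 neural markers was between 75.5 and 162 in replicates 1 and 2 and 271 in replicate 3 of each line. All 8 testable neural markers were highest in replicate 3 of both lines. So were 25.6% of all genes tested, and 60.7% of those with a mean normalized count from 5 to 20. Replicate 3 thus stood apart in both lines, and calls of the members and of the lists are given below with and without that date. In these bulk samples, fewer cells expressing a gene and less RNA per cell cannot be told apart.

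The element that links REST to its targets was located first in the reference sequences. RE1 was searched on both strands as the letters TTCAGCACC, a gap of 2 bases and the letters GGACAGCGC, with up to 3 mismatches in the 18 fixed letters, in the transcripts of each gene (GENCODE M21, GRCm38) and in RefSeq windows of 300 bases around gene starts (GRCm38.p6). Of the 10 genes, Bdnf had a match in a transcript, and none of the 8 with a promoter window had one there. In a list of 40 known REST target genes, 9 of 39 with a transcript held a match, beside 0.580% of all genes, and 4 of 26 with a promoter window held one, beside 0.133%. The list was defined as neuronal genes that contain RE1, so a higher share than among all genes was built into it. With up to 2 mismatches, Bdnf kept its match and 6 of the 39 had one in a transcript, beside 0.145% of all genes. Below, the Bdnf element is set against those of Chrnb2 (a nicotinic receptor subunit), Grin1 and Gria2 (glutamate receptor subunits), Vgf (a secreted neuropeptide precursor) and Srrm4 (a splicing factor that acts on the Rest transcript), which had at most 1 mismatch. They are shown because these letters are what REST reads at a target. The listed gene Syt4 also had a match with 1 mismatch, which is not printed. Capitals mark letters equal to the RE1 letters, and lower case marks the gap, any mismatch and 5 flanking bases on each side. Each is written 5′ to 3′ on the strand of the match. Exon numbers count within a transcript that holds the match. The Bdnf match was centred 158 bases into its transcript, whereas the gene is annotated from position 109674700. Its exon 1 is thus the first exon of a transcript that starts further downstream.
Bdnf, exon 1, 5′ UTR, chr2:109676045-109676064, plus strand: gtccaTTCAGCACCttGGACAGaGCcagcg
Chrnb2, exon 1, 5′ UTR, chr3:89764455-89764474, minus strand: gcggcTTCAGCACCacGGACAGCGCtccgt
Grin1, exon 1, 5′ UTR, chr2:25319015-25319034, minus strand: tacgcTTCAGCACCtcGGACAGCaCccgcc
Gria2, promoter window, chr3:80802989-80803008, plus strand: tcgatTTtAGCACCgcGGACAGCGCtttgg
Vgf, exon 4, 5′ UTR, chr5:137030275-137030294, minus strand: ccggcTTCAGCACgctGGACAGCGCccgcg
Srrm4, exon 1, 5′ UTR, chr5:116591496-116591515, minus strand: cacgtTTCAGCACttcGGACAGCGCcccag
The Bdnf element differed from the search letters at 1 position, in the right-hand block. A match describes the letters only, and binding was not measured here.

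Rest and Rcor1 were higher in HN than in R1 mESCs when libraries of the same date were compared with each other, and none of the 10 genes passed the test when the lines were compared without regard to date. Without the block, limma called 0 of the 10 genes at an adjusted p under 0.05, beside 0.119% of all 14276 genes tested called higher in HN and 0.126% called lower. edgeR and DESeq2 without the block called 0 as well. At an unadjusted p under 0.05 in limma, 1 of the 10 (Rcor1) was higher, beside 3.15% of all genes. With the date as a replicate block, limma called Rest and Rcor1 higher and none lower, beside 5.46% of all genes called higher and 4.02% called lower. edgeR with the block called the same 2 higher, beside 6.44% of all genes. DESeq2 with the block called 0 of the 10, beside 2.24% of all genes called higher, and gave no adjusted p for Rcor3 and Bdnf. Both limma calls depended on the dates included, as given below. All 10 genes passed the filter of a mean normalized count of at least 5. The median log2 difference of the 10 genes was 0.13, beside -0.01 over all genes tested.

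**Figure D1:**
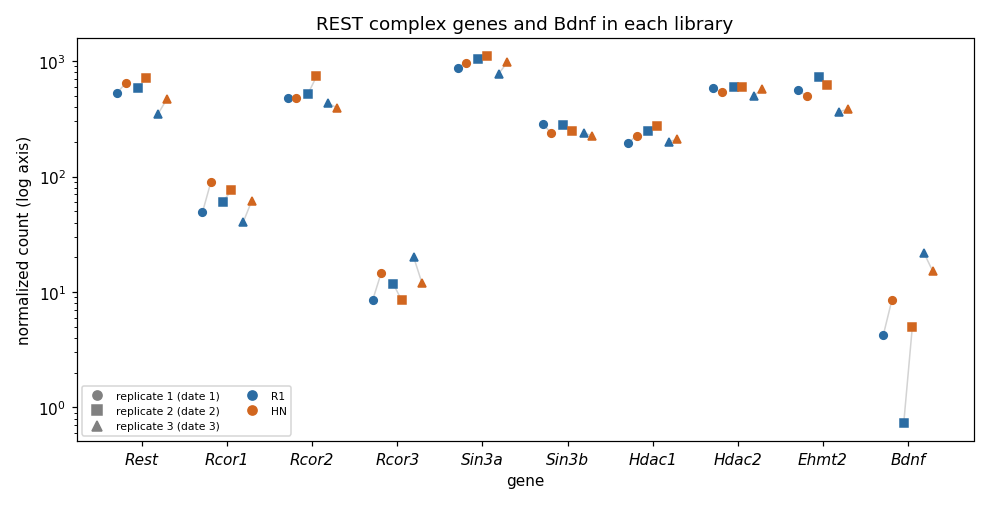
Normalized count (vertical log axis) of each gene in each library; blue points are R1, orange points HN, the point shape gives the replicate, and grey lines join libraries of the same date. Rest and Rcor1 are higher in HN on every date, and Bdnf is highest in replicate 3 of both lines.

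Rest lies on chromosome 5 (chr5:77265491-77286432, plus strand, GRCm38). On dates 1, 2 and 3 the R1 libraries had normalized counts of 534.4, 585.2 and 350.4 and the HN libraries 647.3, 712.4 and 466.8. HN was above R1 on every date, replicate 3 was the lowest of both lines, and the lines overlapped. Within dates the log2 differences were 0.28, 0.28 and 0.41, and the mean difference was 0.32, which is 1.24-fold as a ratio of the line means. Without the block its SE was 0.24 and its 95% interval -0.20 to 0.85 (limma adjusted p = 1). With the replicate block the interval was 0.13 to 0.52 (adjusted p = 0.0267), and edgeR with the block called it too (adjusted p = 0.0183), as it did 6.44% of all genes in this direction. DESeq2 with the block did not (adjusted p = 0.131), and it called 0 of the 10 genes and 2.24% of all genes higher. Without the block, the difference was 0.10 without R1 replicate 3 and 0.20 without HN replicate 2, and 0.50 without HN replicate 3. With 1 date left out of the limma fit with the block, the adjusted p was 0.0355 without date 1, 0.278 without date 2 and 0.0591 without date 3.

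The profile of Rest over the 6 libraries was close to that of several other genes. Among 7658 other genes with a mean of at least 50, likeness was measured as the root mean square (RMS) difference of centred log2 values, whose median was 0.314. The nearest were Marcksl1, a MARCKS-like actin regulator (RMS 0.031), Wnk1, a kinase of ion transport (0.042), Mllt10, a cofactor of histone H3 lysine 79 methylation (0.044), Snx10, a sorting nexin (0.046), and Odf2, a centriole appendage protein (0.046). Marcksl1, for instance, had normalized counts of 1160, 1250 and 768 in R1 and of 1372, 1546 and 958 in HN. It had the same lowest date and the same side for HN, which follows from choosing genes by likeness over these 6 libraries.

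**Figure D2:**
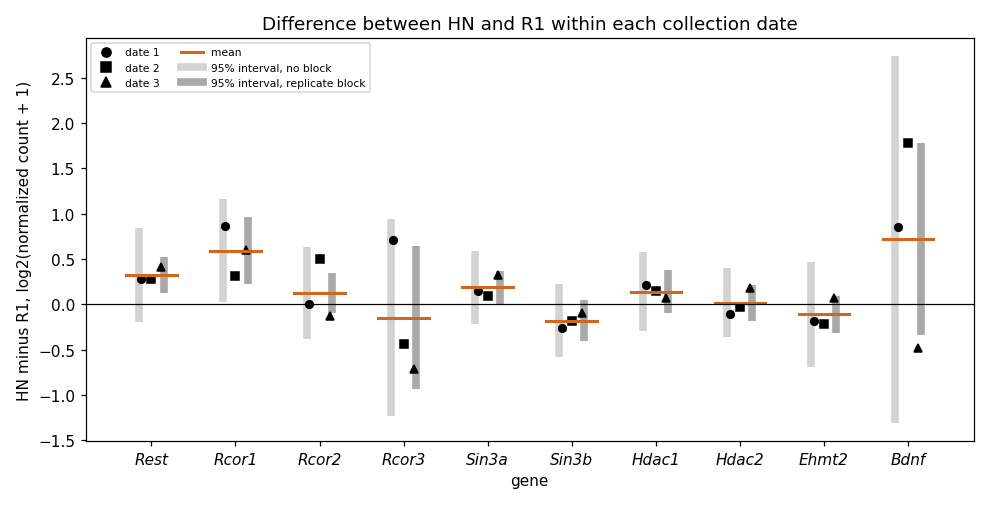
HN minus R1 on the log2(normalized count + 1) scale (vertical axis) for each gene; black points are the differences on dates 1 to 3, orange bars their mean, and the light and dark grey bars the 95% limma intervals without and with the replicate block. For Rest the dates lie between 0.28 and 0.41, and for Bdnf between -0.48 and 1.78.

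Of the CoREST genes, Rcor1 was the one whose lines did not overlap. RCOR1 is the corepressor that couples the demethylase LSD1 (Kdm1a) and HDAC1/2 to REST. Its normalized counts were 49.0, 60.7 and 40.4 in R1 and 90.04, 75.8 and 61.7 in HN, so that every HN library was above every R1 library. Groups that did not overlap with HN higher were found for 1 of the 10 genes and 5.23% of all genes, and with HN lower for 0 of the 10 and 5.54% of all genes. The mean log2 difference was 0.59 (SE 0.26, 95% interval 0.03 to 1.16, limma adjusted p = 0.816 without the block). With the replicate block the interval was 0.22 to 0.97 (adjusted p = 0.0344). edgeR with the block called it (adjusted p = 0.0274) and DESeq2 with the block did not (adjusted p = 0.361). In the limma fit with the block the adjusted p was 0.234 without date 1, 0.117 without date 2 and 0.0422 without date 3. Rcor1 lies at chr12:111039351-111115901.

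Rcor2, the CoREST paralog known from embryonic stem cells and neural progenitors, did not pass the test in either fit. Its normalized counts were 481.2, 521.5 and 431.3 in R1 and 480.6, 736.5 and 394.2 in HN. HN replicate 2 stood above the other libraries, and the remaining ones overlapped. The log2 difference was 0.12 (95% interval -0.39 to 0.63; with the block -0.10 to 0.34), and -0.13 without HN replicate 2. Rcor3, the third paralog, was near the detection limit, with 8.52, 11.8 and 20.2 in R1 and 14.6, 8.51 and 11.9 in HN, from 8 to 16 reads per library. Its lines overlapped and the difference of -0.15 (95% interval -1.24 to 0.95) turned to 0.17 without R1 replicate 3 and to 0.05 without HN replicate 2. Transcripts on the opposite strand cover part of the Rcor3 exons (8.34% of the exon bases overlap other genes), and the library kit does not keep the strand. One of them, Gm10516, had a mean normalized count of 8.99 in R1 and 5.88 in HN.

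Neither SIN3 scaffold passed the test. Sin3a, the scaffold through which HDAC1/2 are held on many repressors and which pluripotent cells require, had 878.3, 1038 and 776.4 in R1 and 972.1, 1104 and 973.7 in HN. HN was higher on each date by 0.15, 0.09 and 0.33 on the log2 scale, and the lines overlapped. The mean difference was 0.19 (95% interval -0.21 to 0.59; with the block 0.003 to 0.37, limma adjusted p = 0.223). Sin3b, its paralog linked to cell cycle exit, had 284.2, 281.8 and 239.9 in R1 and 237.3, 248.1 and 224.2 in HN. Here HN was lower on each date, the lines again overlapped, and the mean difference was -0.18 (95% interval -0.58 to 0.22; with the block -0.41 to 0.05, adjusted p = 0.381). Of the 10 genes, 4 (Rest, Rcor1, Sin3a and Hdac1) were higher in HN on all 3 dates and 1 (Sin3b) was lower on all 3, beside 20.3% and 21.1% of all genes.

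The deacetylases and G9a did not pass the test either. Hdac1 had 194.8, 247.8 and 200.8 in R1 and 226.3, 273.6 and 210.1 in HN, a log2 difference of 0.14 (95% interval -0.30 to 0.58; with the block -0.09 to 0.38) with overlapping lines. Its values are uncertain because 35.3% of the 50-base stretches of its exons recur in other genes, among them Gm10093. Hdac2, its paralog, had 580.2, 602.2 and 502.7 in R1 and 539.0, 591.2 and 570.8 in HN, with overlapping lines and a difference of 0.02 (95% interval -0.36 to 0.40; with the block -0.18 to 0.21). The sign of this difference was negative with quantile normalization and, without the block, without R1 replicate 3 or HN replicate 2 (down to -0.061). With the block and date 3 left out from both lines, it was -0.066. Ehmt2 had 563.1, 725.7 and 363.9 in R1 and 494.0, 623.1 and 383.4 in HN. The dates spread further than the lines did. The line difference was -0.11 (95% interval -0.69 to 0.47, and -0.31 to 0.09 with the block). It was 0.12 without R1 replicate 2 and 0.07 without HN replicate 3, in fits without the block that left 1 date unpaired. With the block and date 1, 2 or 3 left out from both lines, it was -0.07, -0.06 and -0.20. All 3 intervals include 0 and also include changes of the size seen for Rest without the block.

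Bdnf was low in both lines. Its gene lies at chr2:109674700-109727007 on the plus strand, and 4, 1 and 16 reads were counted in R1 and 7, 7 and 14 in HN. The normalized counts were 4.26, 0.740 and 21.6 in R1 and 8.52, 4.96 and 15.2 in HN. Replicate 3 was the highest of both lines, and the lines overlapped entirely. The log2(value + 1) difference was 0.72 (SE 0.93, 95% interval -1.31 to 2.74, limma adjusted p = 1; with the block -0.34 to 1.78, adjusted p = 0.476), whereas the ratio of the line means was 1.08. Without R1 replicate 2, which had 1 read, the difference was -0.17, in a fit without the block that left HN replicate 2 unpaired. With the block and date 1, 2 or 3 left out from both lines, it was 0.65, 0.19 and 1.32. No difference between the lines was detected, and the interval without the block includes changes of more than 2-fold in either direction. Of the Bdnf exon bases, 14.4% overlap an antisense transcript that these unstranded libraries cannot set apart.

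Levels can be compared between the genes once divided by exon length. Sin3a was at the top with a mean of 178 normalized counts per kb of exon, followed by Rcor2 (161), Hdac2 (126), Ehmt2 (95.7), Rest (76.1), Hdac1 (65.5) and Sin3b (34.4). Rcor1 (11.1), Bdnf (1.48) and Rcor3 (0.925) were at the lower end. Of the 9 pairs of neighbours in this order, 6 overlapped over the 6 libraries, and the 3 that did not were Hdac1 and Sin3b, Sin3b and Rcor1, and Rcor1 and Bdnf. Within a library the order by this exon length was firmer: Hdac2 was above Ehmt2, and Ehmt2 above Rest, in 6 of 6 libraries, although their ranges overlapped. The other overlapping neighbours kept their order in 5 of 6. The order also depends on the length used. With the longest transcript as length, Hdac1 (110.7) was above Rest (78.4) and Rcor3 (3.32) above Bdnf (2.16), and Rest overlapped Sin3b (61.4), so that the gaps left were those between Sin3b and Rcor1 and between Rcor1 and Rcor3. By that length the order within a library was less firm at the top. Sin3a was above Rcor2 in 3 of 6 libraries, Rcor2 above Hdac2 in 2 and Ehmt2 above Hdac1 in 4. The other overlapping neighbours kept their order in 5 or 6.

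**Figure D3:**
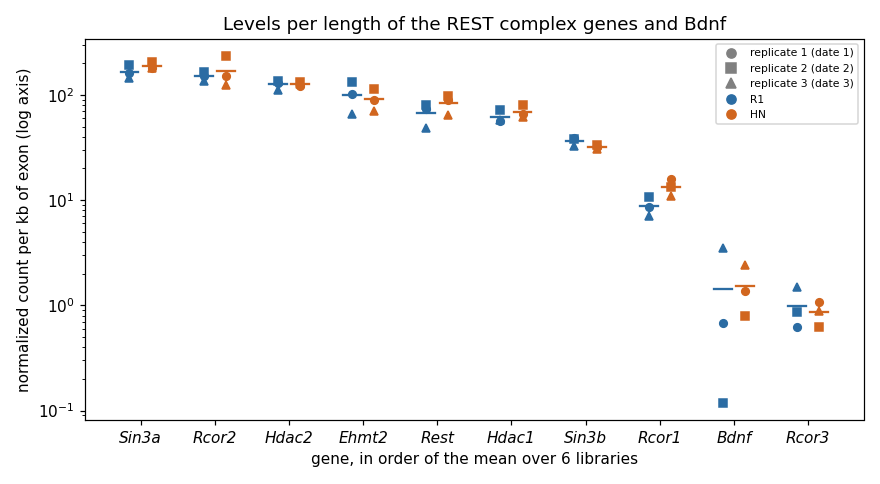
Normalized count per kb of exon (vertical log axis) for each gene, in order of the mean over the 6 libraries; points are libraries (blue R1, orange HN, shape by replicate) and bars the means of 3 libraries. Rcor2 lies above Rcor1 by more than 9-fold in every library.

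Per length, Rcor2 was the main CoREST transcript in both lines. The ratio of Rcor2 to Rcor1 was 17.5 ± 1.87 in R1 and 12.9 ± 4.11 in HN (SD, n = 3 each; exact two-sided permutation test p = 0.2), and its lowest value, 9.61, was in HN replicate 1. The ratio of Rcor3 to Rcor1 was 0.121 ± 0.0761 in R1 and 0.065 ± 0.017 in HN (exact permutation p = 0.2). The ratio of Hdac1 to Hdac2 was 0.496 ± 0.0529 and 0.541 ± 0.0616 (exact permutation p = 0.4). This ratio and the level of Hdac1 per length are uncertain. Of the 50-base stretches, 35.3% recur in other genes for Hdac1 and 0% for Hdac2. Sin3a to Sin3b was the ratio that did not overlap: 4.22, 5.03 and 4.42 in R1 and 5.60, 6.08 and 5.93 in HN, with means of 4.56 ± 0.422 and 5.87 ± 0.246. Its exact permutation p was 0.1, the smallest that 3 against 3 libraries allow, so that these 4 comparisons could not reach 0.05. Exon length includes all annotated isoforms, and with the longest transcript as length the log2 ratio moved from -3.60 to -1.75 for Rcor3 to Rcor1, from -0.95 to -0.66 for Hdac1 to Hdac2 and from 2.37 to 1.58 for Sin3a to Sin3b, with the same difference between lines.

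The collection date was tested with the line in the model. The limma F test called 4 of the 10 genes, beside 46.0% of all genes tested, so that date differences were no more frequent among these genes than overall. Rest had a mean normalized count of 590.8, 648.8 and 408.6 on dates 1, 2 and 3 (n = 2 libraries each, adjusted p = 7.46e-05). Ehmt2 had 528.6, 674.4 and 373.7 (adjusted p = 9.52e-06), and Rcor2 had 480.9, 629.0 and 412.8 (adjusted p = 0.00208). These 3 were highest on date 2 and lowest on date 3. Bdnf ran the other way, with 6.39, 2.85 and 18.4 (adjusted p = 0.00558).

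Replicate 3 was the lowest library of both lines for 5 of the 10 genes (Rest, Rcor1, Rcor2, Sin3b and Ehmt2), beside 29.5% of all genes, and the highest of both for 1 (Bdnf), beside 25.6%. The share depended on level. Among genes with a mean normalized count of at least 100, which hold 7 of the 10 (Rest, Rcor2, Sin3b and Ehmt2, and also Sin3a, Hdac1 and Hdac2, which were not lowest there in both lines), 50.7% were lowest in replicate 3 of both lines and 6.32% highest. Among genes with a mean from 5 to 20, where Bdnf and Rcor3 lie, 60.7% were highest and 4.76% lowest. The neural markers (8 of 8 tested) and the markers of primitive endoderm, mesoderm and fibroblasts (9 of 10 tested) were also highest in replicate 3 of both lines. The part of depth, RNA composition or other cells in the date differences was not tested.

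**Figure D4:**
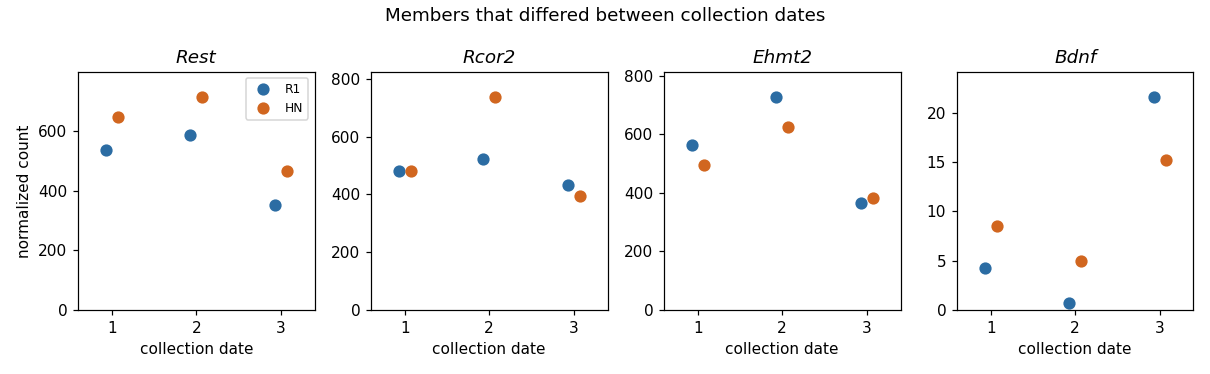
Normalized count (vertical axis from 0) of the 4 genes that differed between collection dates; the horizontal axis is the date, blue points are R1 and orange points HN. Rest, Rcor2 and Ehmt2 are lowest on date 3 in both lines, and Bdnf is highest on date 3 in both.

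Other genes of the pathway were read from lists. Among 20 partners of CoREST and the REST C-terminal domain, 0 were called without the block by limma, edgeR or DESeq2, 2 were higher at an unadjusted limma p under 0.05 (3.15% of all genes were), and the largest differences were those of Wiz (log2 0.87), a zinc-finger partner of the G9a methyltransferases, and Ctbp2 (0.53), a corepressor that binds such complexes. With the replicate block 4 were called higher in HN (Zmym2, Wiz, Ctbp2 and Ctdsp2) and none lower, beside the 5.46% and 4.02% of all genes given above, a count of 4 with edgeR as well and of 1 (Ctbp2) with DESeq2. Zmym2 is a subunit of the LSD1-CoREST complex, and Ctdsp2 a small phosphatase of the family that REST recruits. Genes called with the block but not without it, and Kdm1a and Ehmt1 below, fall outside the rule for naming genes and were chosen after their values were seen.

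Ctbp2 had normalized counts of 738.8, 1166 and 688.7 in R1 and 1178, 1486 and 1018 in HN, higher on every date with overlapping lines (adjusted p with the block 1.08e-04). Wiz had 26.6, 30.3 and 43.1 in R1 and 58.4, 75.1 and 50.9 in HN, which did not overlap (adjusted p with the block 0.00762). The demethylase Kdm1a, with means of 914.2 in R1 and 900.1 in HN, and the G9a partner Ehmt1, with 150.0 and 167.7, did not pass the test (adjusted p with the block 0.940 and 0.603). The median difference of the list was 0.11. In limma fits with the block and without date 1, 2 or 3, the count of list genes called higher was 2, 1 and 4. Of all 14276 genes tested, these fits called 731, 304 and 836 higher. Ctbp2 was among the called list genes each time, and Wiz was not without date 2.

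Among 13 SIN3-HDAC subunits, 0 were called without the block by any of the 3 tools, 0 had an unadjusted limma p under 0.05, and the largest differences were those of Sap18 (log2 0.47) and Sap30l (-0.45). With the block Sap30, a bridge between SIN3 and the deacetylases, was lower in HN, with normalized counts of 396.0, 474.2 and 315.4 in R1 and 299.3, 360.8 and 276.2 in HN (log2 difference -0.33, adjusted p = 0.0416). It was the 1 gene of the 13 called lower with the block, beside 4.02% of all genes. The Sap30 call was lost without date 1 or date 2 and with DESeq2. Of 11 regulators of REST abundance, splicing and location, Htt itself was called without the block, a call lost without R1 replicate 1 (adjusted p = 0.122) and without the variance trend (0.325). With the block Csnk1e, of the casein kinase 1 family that phosphorylates REST ahead of its degradation, was lower as well: 557.8, 423.9 and 238.6 in R1 and 349.2, 238.9 and 180.9 in HN (log2 difference -0.63, adjusted p = 1.36e-04). Htt and Csnk1e were thus the 2 of the 11 called lower with the block, beside the same 4.02% of all genes. The Csnk1e call held with edgeR and DESeq2 with the block and with any 1 date left out.

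The 40 REST target genes were mostly weakly expressed. In 10 of them at least 1 library had 0 reads, and 29 reached the mean normalized count of 5 needed for the test. Without the block 0 of the 29 were called by limma, edgeR or DESeq2, and the median log2 difference was -0.10. At an unadjusted limma p under 0.05, 1 was higher, beside 3.15% of all genes, and 4 were lower. The share of all genes lower at that threshold was not computed. With the block 5 were called lower in HN (Stmn2, Grin1, Tubb3, Stmn3 and Kcnh3) and 1 higher (Nefl), beside 4.02% of all genes lower and 5.46% higher. The genes most different without the block were Chgb (-1.46), a granin of secretory vesicles, and Scg3 (1.39), a secretogranin, both from few reads and with dates that disagreed in sign.

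Stmn2, the neuronal microtubule regulator SCG10 and a founding RE1 gene, had normalized counts of 918.7, 662.8 and 477.1 in R1 and 399.1, 378.5 and 385.6 in HN. The lines did not overlap, and the log2 difference was -0.77 (SE 0.23, limma adjusted p = 0.463 without and 1.17e-05 with the block). Tubb3, the neuronal beta-tubulin, had 201.2, 269.3 and 133.4 in R1 and 82.7, 148.9 and 120.2 in HN, lower on every date with overlapping lines (log2 difference -0.76, adjusted p = 0.715 and 7.45e-04). Nefh, the heavy neurofilament chain, had 68.1, 105.8 and 89.0 in R1 and 32.9, 124.0 and 71.5 in HN. Its lines overlapped, and the difference of -0.37 passed neither test (adjusted p = 1 and 0.247). These 3 had the highest mean normalized counts of the list, which were not divided by length.

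Nefl, the light neurofilament chain, had 35.1, 42.9 and 29.7 in R1 and 77.9, 124.8 and 57.4 in HN, the opposite direction to Stmn2, without overlap (log2 difference 1.19, limma adjusted p with the block 4.36e-05). Stmn3, a relative of Stmn2, had 87.3, 79.9 and 37.7 in R1 and 34.1, 24.1 and 17.3 in HN, again without overlap (log2 difference -1.37, adjusted p with the block 4.07e-05). Kcnh3, a potassium channel, had means of 28.2 in R1 and 12.1 in HN (log2 difference -1.20, adjusted p with the block 0.0108). Kcnh3 was not called without date 2 or with DESeq2. The list thus held called genes in both directions.

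Grin1 was the single gene with a printed element that was called. Its normalized counts were 41.5, 17.8 and 66.0 in R1 and 30.4, 4.25 and 30.3 in HN, with HN lower on each date and overlapping lines. The log2 difference was -1.12 (SE 0.67 in the limma fit without the block, limma adjusted p with the block 0.00855). The call was lost without date 2 and with DESeq2. The log2 differences of Chrnb2, Gria2, Vgf and Srrm4 were -0.14, -0.11, 0.13 and -0.17, and that of Bdnf is given above. Their SEs in the limma fit without the block were 0.64, 0.66, 0.84 and 0.76 for Chrnb2, Gria2, Vgf and Srrm4. The limma adjusted p of these genes with the block was from 0.886 to 0.933. All 5 overlapped between lines. Vgf, at 2.13 to 33.7 normalized counts, was highest in replicate 3 of both lines, as was Srrm4, at 3.54 to 22.7. The call counts of the list were 3 lower and 1 higher with DESeq2 with the block, 5 and 1 with edgeR with the block, and from 3 to 6 lower and 1 higher in limma fits with the block and 1 date left out. Of all 14276 genes tested, DESeq2 with the block called 164 lower and 320 higher, and edgeR with the block 685 and 920. The limma fits without date 1, 2 and 3 called 396, 190 and 847 lower and 731, 304 and 836 higher.

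**Figure D5:**
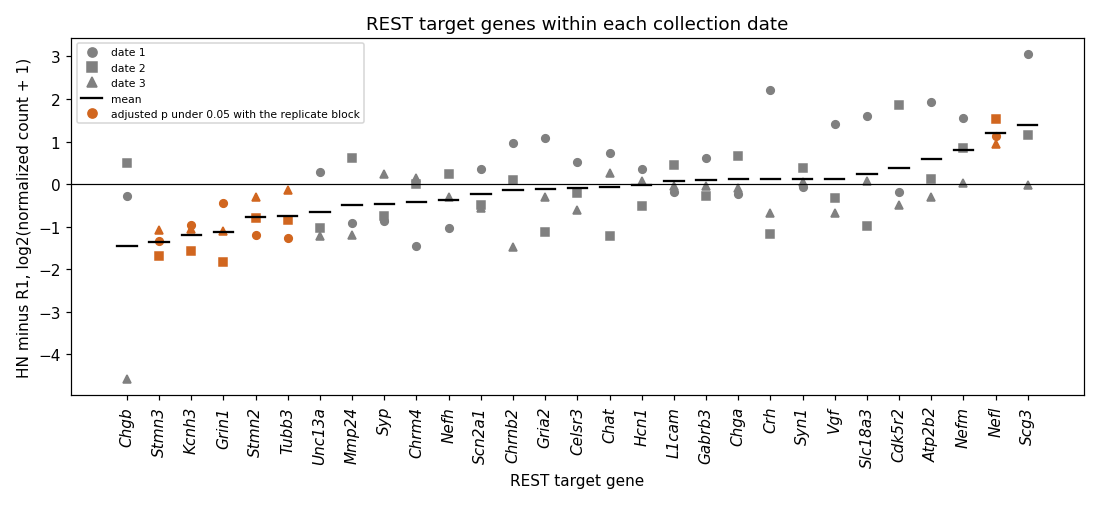
HN minus R1 on the log2(normalized count + 1) scale (vertical axis) for the 29 testable REST target genes, in order of the mean (black bars); points are the dates, in orange for genes with an adjusted p under 0.05 with the replicate block. The 5 genes called lower (Stmn3, Kcnh3, Grin1, Stmn2 and Tubb3) lie below 0 on all dates, and Nefl lies above 0 on all dates.

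Genes that process or receive BDNF did not pass the test in either fit. Of 15 listed genes, 12 were tested, and 0 were called by limma, edgeR or DESeq2 in fits without or with the block. At an unadjusted limma p under 0.05 the count was 0 without the block and 1 (Furin) with it, and the median log2 difference was -0.11. The largest differences were those of Furin, a protease that cleaves neurotrophin precursors, with 11.7, 13.3 and 9.44 normalized counts in R1 and 23.1, 19.9 and 17.3 in HN (log2 difference 0.76, limma adjusted p = 0.982 without and 0.178 with the block), and Ntrk2, the BDNF receptor TrkB, with 18.1, 7.40 and 40.4 in R1 and 14.6, 7.09 and 27.1 in HN (-0.30). Furin did not overlap between lines, and Ntrk2 was highest in replicate 3 of both lines, as Bdnf was.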

How the data were processed

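RNA-seq of 3 R1 and 3 HN libraries was analysed. The authors aligned reads to mm10 with STAR, removed duplicates with Picard, counted exon reads with HTSeq and divided each library by its DESeq2 size factor, so that the deposited signal is a normalized count. Versions, annotation and strand setting are not given in the sources used here. Values were whole multiples of 1 read (tolerance 0.01), and reads were recovered for depth and count tests. Unused columns of per-sample values numbered 0.

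Lines were compared with limma 3.58.1 (R 4.3.3) on log2(value + 1) with a variance trend, over genes with a mean of at least 5, and called at a Benjamini-Hochberg adjusted p under 0.05 whatever the fold. Libraries pair by the dates in the labels: deviations of same-date libraries from their line means correlated at 0.25, 0.69 and 0.77, and those of different dates at -0.71 to 0.34, the highest being R1 replicate 1 with HN replicate 2. Libraries of a line were not one library deposited again (chi-square of their reads per degree of freedom 4.70 to 9.91). Alternatives were the date as a block, edgeR 4.0.16 and DESeq2 1.42.0 on recovered reads, other pseudocounts, filters and scalings, and libraries left out; fits with a date left out were added after seeing the data. The fits were tested on simulated counts. No genome sequence was used here, so RE1 was searched in transcripts and promoter windows.

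Members and lists were chosen with earlier results of these data known. Named genes were the members, Htt, list genes called without the block (otherwise the 2 with the largest difference), the 3 target genes with the highest mean and the 5 genes most like Rest.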

Additional observations from a re-analysis of the deposited data

How the results depend on the processing

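Of 208 member fold changes under alternatives, 190 kept their direction and their side of the threshold, 6 became called and 12 changed sign. The 190 include Rcor3 and Bdnf in DESeq2 with the block, which gave them no adjusted p. The called ones were Rest with the replicate block in limma (0.32), in edgeR (0.32) and without date 1 (0.35), and Rcor1 with the block in limma (0.59), in edgeR (0.57) and without date 3 (0.59), which gave 2, 2, 1 and 1 members called higher in these fits. With 1 library left out, the log2 differences ranged from 0.10 to 0.50 for Rest, from 0.45 to 0.74 for Rcor1, from 0.088 to 0.30 for Sin3a, from -0.26 to -0.14 for Sin3b, from 0.032 to 0.25 for Hdac1, from -0.13 to 0.32 for Rcor2, from -0.41 to 0.17 for Rcor3, from -0.061 to 0.069 for Hdac2, from -0.38 to 0.12 for Ehmt2 and from -0.17 to 1.68 for Bdnf. With the replicate block and 1 date left out they were -0.066 for Rcor2 (date 2), 0.14 for Rcor3 (date 3) and -0.066 for Hdac2 (date 3), and quantile normalization gave -0.0048 for Hdac2. In the fits with a date left out, the difference stayed negative for Ehmt2 and positive for Bdnf. Leaving out 1 library left 2 in that line.

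Genes called higher and lower over all genes numbered 780 and 574 with the replicate block, 920 and 685 with edgeR and the block, 56 and 37 with DESeq2, 320 and 164 with DESeq2 and the block, and 0 and 0 without the variance trend. Median centring called 30 higher and quantile normalization 27. With 1 library left out 3 to 30 were higher and 4 to 26 lower, and with the block and 1 date left out 731, 304 and 836 were higher and 396, 190 and 847 lower, for dates 1, 2 and 3. Genes differing by date numbered 4090 with a mean of at least 50, where fewer genes are tested. With the longest transcript, log2 ratios were -1.75, -0.66 and 1.58 for Rcor3 to Rcor1, Hdac1 to Hdac2 and Sin3a to Sin3b. The cause of the other changes was not tested. Bdnf and Rcor3 had no value with a mean of at least 50. No scaling moved the median of all genes by over 0.1 on the log2 scale. Depth limits Bdnf, Rcor3 and most target genes, which had few reads per library.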

Other observations

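The other zinc-dependent histone deacetylases, which are no members of the REST repressor core, did not pass the test without or with the replicate block in limma (0 of 9 tested, also 0 with edgeR and DESeq2 without the block, and at an unadjusted limma p under 0.05, 0 without the block and 1 with it). The largest difference without the block was that of Hdac7, a class IIa deacetylase, with normalized counts of 29.8, 27.4 and 60.7 in R1 and 29.2, 9.92 and 29.2 in HN (log2 difference -0.81, limma adjusted p = 1 without and 0.0557 with the block). Hdac5, of the same class, had 155.4, 95.4 and 155.0 in R1 and 110.7, 102.8 and 119.1 in HN, with a difference of -0.25. Hdac7 was called lower by edgeR with the block and by limma with the block and without date 1.

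Among the 10 pluripotent cell markers, limma with the replicate block called 5 higher in HN (Nanog, Esrrb, Klf4, Tfcp2l1 and Dppa5a) and 2 lower (Zfp42 and Utf1). The shares of all genes were 5.46% higher and 4.02% lower. Without the block limma called 0 of these markers. At an unadjusted p under 0.05, 2 were higher there, beside 3.15% of all genes, and 2 were lower. The share of all genes lower at that threshold was not computed. DESeq2 without the block called 1 (Zfp42), and limma with the block and without date 2 called 1 higher (Tfcp2l1) and the same 2 lower. Of the neural markers 0 of 8 tested were called in either limma fit, in edgeR or in DESeq2. At an unadjusted limma p under 0.05 the count was 0 as well. Of the 10 tested markers of other cells, T was higher and Thy1 lower with the block, beside the same 5.46% and 4.02% of all genes. T was not called by DESeq2, and Thy1 was not called by limma without date 2. These genes were named after their values were seen.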
